A study of Mus musculus with 23 samples.

Results

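The genes described here are the 5 subunits of the transcription factor NF-kappaB (Nfkb1, Nfkb2, Rel, Rela and Relb), 3 of its IkappaB inhibitors (Nfkbia, Nfkbib and Nfkbie) and the ubiquitin-editing inhibitor A20 (Tnfaip3). They were chosen by gene symbol, and all 9 were found among the 24475 genes of the table. All 9 also passed the filter on low values, a scaled RPKM (a read density per transcript length, brought to the same upper quartile in each library) that reached 1 in 3 or more of the libraries fitted.

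RNA was sequenced from 23 mice of 3 groups. As controls served thymus tissue of 6 normal C57BL/6 mice, whose age is not named. The leukemias were spleens of BALB/c Rag2-/-Il2rg-/- mice in which T-cell acute lymphoblastic leukemia (T-ALL) had arisen from a newborn thymus lobe grafted under the kidney capsule, and the donor thymus was wild type in 14 of them (WT T-ALL) and Notch3 knockout in 3 (Notch3 KO T-ALL). Both leukemia groups therefore shared the host strain, the missing Rag2 and Il2rg of the host and the tissue, and all 3 of these differed from the controls, so that leukemia, tissue and host cannot be told apart in any comparison with thymus. According to the methods, donors of the wild-type lobes were congenic B6.Ly5.1 mice, and the Notch3 allele carries an in-frame insertion of a beta-galactosidase gene in the first coding exon. Mice without Rag2 and Il2rg are known to make no T, B or natural killer cells of their own, and no sorting of the spleen cells is named for the RNA. Each library came from 1 animal and is named here by the number in its label.

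NF-kappaB acts as dimers. Nfkb1 and Nfkb2 encode the precursors p105 and p100, which are processed to the DNA-binding subunits p50 and p52 and which, unprocessed, hold other subunits back. Rela, Rel (c-Rel) and Relb carry the activation domains. In resting cells IkappaB proteins keep the dimers in the cytoplasm until the IkappaB kinase complex marks them for degradation, while another, slower branch driven by the kinase NIK (Map3k14) processes p100 and releases dimers with RelB. Nfkbia and Tnfaip3 are themselves transcribed by NF-kappaB and close a negative feedback loop. In thymocytes the pathway is switched on by the pre-T-cell receptor and the T-cell receptor, and in T-ALL it is known to act together with Notch signaling.

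Promoters are shown first for the 4 members in which a kappaB motif was found. Whether the motif bears on the differences between leukemia and thymus was not tested. The motif was GGG, then any 2 bases, then TTTCC. It was searched on both strands of the 300 bases around each RefSeq start site, most of them before it (assembly GRCm38.p6, the build behind mm10). It was found in 1.63% of all 32851 promoters of this length, and in at least 1 promoter of 1.89% of 27025 genes. Of the 7 members with an entry, 4 held it, namely Nfkb2, Rel, Nfkbia and Tnfaip3, and 2 (Rela and Nfkbib) held neither it nor a looser form (GGG, any 3 bases, TTCC), which contains it, lies in 5.56% of the promoters and adds Nfkbie. Nfkb1 and Relb were not matched to an entry. The 120 bases before the start site of each of the 4 are given 5′ to 3′ on the strand of the gene, with the match in capitals.
Nfkbia, chr12:55492648-55492767, minus strand: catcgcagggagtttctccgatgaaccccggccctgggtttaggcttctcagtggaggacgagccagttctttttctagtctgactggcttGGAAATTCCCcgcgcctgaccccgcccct
Tnfaip3, chr10:19015411-19015530, minus strand: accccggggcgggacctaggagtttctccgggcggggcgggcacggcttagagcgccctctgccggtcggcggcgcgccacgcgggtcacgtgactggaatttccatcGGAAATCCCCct
Rel, chr11:23770970-23771089, minus strand: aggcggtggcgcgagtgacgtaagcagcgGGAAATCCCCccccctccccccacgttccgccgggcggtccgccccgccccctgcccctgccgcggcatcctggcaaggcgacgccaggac
Nfkb2, chr19:46304617-46304736, plus strand: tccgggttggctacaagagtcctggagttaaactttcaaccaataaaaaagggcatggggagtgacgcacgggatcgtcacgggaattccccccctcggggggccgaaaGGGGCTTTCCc
In Nfkbia the match began 29 bases before the start site, in Tnfaip3 12, in Nfkb2 11 and in Rel 91. Tnfaip3 and Rel carried the same 10 letters, GGAAATCCCC, and Nfkb2 has further RefSeq start sites with the match GGGACTTTCC near them. These are letter matches in a reference genome, and no binding was measured. Both motifs were chosen after matches in these promoters had been seen.

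On the linear scale, which corrects for transcript length and allows genes to be compared, Nfkbia was the most abundant of the 9 mRNAs in every group. Its mean scaled RPKM was 136 ± 27.5 (SD, n = 6) in thymus, 56.9 ± 21.05 (SD, n = 14) in WT T-ALL and 40.4 ± 3.54 (SD, n = 3) in Notch3 KO T-ALL. Rel and Relb were the least abundant, at 5.45 ± 1.78 and 4.31 ± 0.55 in thymus and at 1.53 ± 0.87 and 2.83 ± 1.59 in WT T-ALL. In thymus the order of the means was Nfkbia, Tnfaip3, Nfkb1, Rela, Nfkbie, Nfkbib, Nfkb2, Rel and Relb. The means of Tnfaip3 and Nfkb1, of Nfkb1 and Rela, of Nfkbie and Nfkbib, and of Rel and Relb lay within 1 SD of each other there. In WT T-ALL the order was Nfkbia, Nfkb1, Rela, Nfkbib, Tnfaip3, Nfkbie, Nfkb2, Relb and Rel, and each neighbour from Nfkbib down to Nfkb2 lay within 1 SD of the next, as did Nfkbia and Nfkb1, and Relb and Rel. Tnfaip3 thus stood next to Nfkbia in thymus and below Nfkb1, Rela and Nfkbib in WT T-ALL, and Relb ranked above Rel in 13 of 14 WT T-ALL libraries. Nfkb1 ranked above Rela in all 14 of them, against 4 of 6 thymus libraries. In Notch3 KO T-ALL, Nfkbia, Nfkb1 and Rela again led and Relb and Rel came last.

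**Figure D1:**
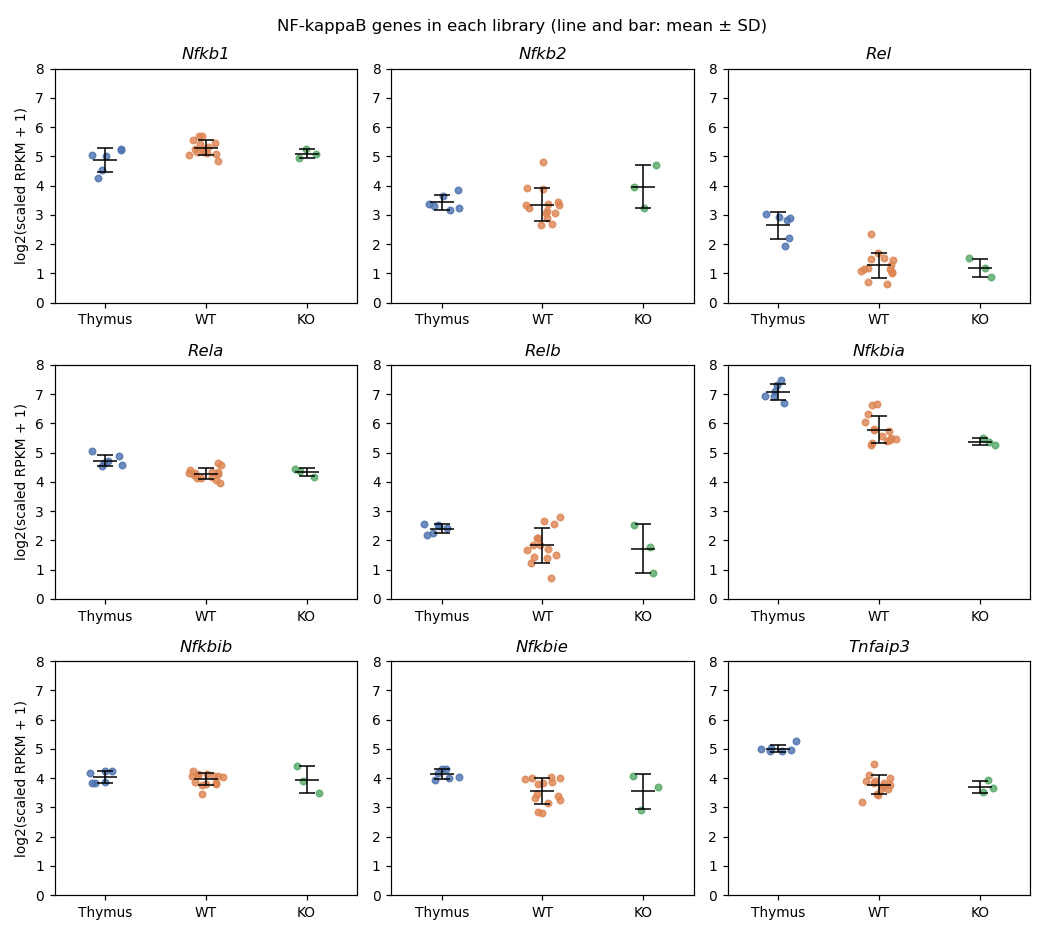
Level of each of the 9 genes in every library, as log2(scaled RPKM + 1), in thymus (n = 6), WT T-ALL (n = 14) and Notch3 KO T-ALL (n = 3); points are libraries, lines and bars are the mean ± SD. For Nfkbia and Tnfaip3 every thymus point lies above every leukemia point, while the ranges of Nfkbib overlap in all groups and Nfkb2 and Relb spread most widely in leukemia.

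The first comparison asks how the pathway's own components stand in WT T-ALL beside normal thymus. From here on a level is log2(scaled RPKM + 1) as deposited, a difference is the difference between group means on that scale, and a call is an adjusted p under 0.05 from limma with Benjamini-Hochberg adjustment over all genes tested. The offset of 1 makes the differences of Rel and Relb smaller than their fold changes. Of the 9 members, 5 were called lower and 1 higher. The background was high, since 51.6% of the 11919 genes tested were called in either direction, 22.3% lower and 29.3% higher. The median difference of the members was -0.58, against 0.08 over all genes tested. In bulk RNA of this kind, fewer cells of a type and less RNA per cell cannot be told apart.

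Among the subunits, Rel (gene ID 19696, chr11:23736847-23770969) differed most. c-Rel is the subunit most tied to lymphoid cells and their antigen receptors. The 6 thymus libraries, controls 1 to 6, had levels of 2.93, 2.81, 3.04, 2.89, 1.94 and 2.21. Values in WT T-ALL ran from 0.65 through a median of 1.17 to 2.34, and 13 of 14 lay below every control. The exception was WT T-ALL 110, which overlapped with controls 5 and 6, the lowest of the thymus group. The difference was -1.36 (SE 0.21), with a limma adjusted p of 1.34e-05, and the mean scaled RPKM was 3.57-fold lower.

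WT T-ALL 110 was also the library with the lowest summed T lineage markers of its group (8 genes, scaled RPKM 1545) and the highest summed neutrophil markers (7 genes, 84321, against 57.1 to 530 in thymus). Their part in its Rel level was not tested. Over the 14 WT T-ALL libraries the level of Rel had a Pearson r of -0.50 with the mean T lineage marker level and 0.53 with the macrophage one, as a description of libraries that share their preparation.

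Rela (gene ID 19697, chr19:5637442-5648134), the main activating partner of p50, was called lower by a smaller amount. Thymus levels were 4.57, 5.05, 4.63, 4.88, 4.54 and 4.70, and WT T-ALL ran from 3.95 through 4.28 to 4.65. A total of 12 of the 14 leukemias lay below every control. The difference was -0.45 (SE 0.11, limma adjusted p = 0.00117), a 1.39-fold lower mean scaled RPKM. With a block on the label number it was -0.32 (limma adjusted p = 0.280), but of the WT leukemias only 3, 4 and 5 bear on that value. Among the libraries below 0 on the main pattern within groups it was -0.36 (limma adjusted p = 0.0767).

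Nfkb1 (gene ID 18033, chr3:135584655-135691969) was the only member called higher. In thymus it stood at 5.00, 5.25, 5.04, 5.23, 4.26 and 4.52, and in WT T-ALL it ran from 4.84 through 5.26 to 5.71. Only 8 of 14 leukemias lay above every control, and the thymus group itself fell apart into controls 1 to 4 and the lower controls 5 and 6. The difference of 0.41 (SE 0.15, limma adjusted p = 0.0224) rested on those controls. It was 0.28 (adjusted p = 0.102) without control 5, 0.34 (adjusted p = 0.0750) without control 6 and 0.16 (adjusted p = 0.373) without both.

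Nfkb2 (gene ID 18034, chr19:46300994-46312400) and Relb (gene ID 19698, chr7:19606217-19629438), the pair of the slower branch, were not called. Nfkb2 had thymus levels of 3.23, 3.84, 3.18, 3.64, 3.31 and 3.37, and WT T-ALL ran from 2.65 through 3.28 to 4.81, on both sides of the controls. Its difference was -0.09 (95% interval -0.59 to 0.41, limma adjusted p = 0.784). For Relb the thymus levels were 2.52, 2.55, 2.25, 2.51, 2.18 and 2.41 and the WT T-ALL levels 0.72 through 1.77 to 2.81, with 11 of 14 leukemias below every control and 3 above every control. The difference in Relb was -0.58 (95% interval -1.11 to -0.05, limma adjusted p = 0.0624). It passed the threshold when WT T-ALL 48, 110 or 120, the 3 leukemias above the controls, was left out (adjusted p = 0.0395, 0.0331 and 0.0297). It also passed with quantile normalization (adjusted p = 0.0265), with only thymus and WT T-ALL fitted (adjusted p = 0.0471) and with the macrophage and neutrophil markers as a covariate (difference -1.07, adjusted p = 0.0140).

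Among the inhibitors, Nfkbia and Tnfaip3 separated the groups, and Nfkbie and Nfkbib did not. Nfkbia (gene ID 18035, chr12:55489409-55492647) encodes IkappaBalpha, the inhibitor that is broken down and remade in each round of NF-kappaB activation. In thymus its level was 6.93, 6.92, 7.09, 6.70, 7.32 and 7.48, and in WT T-ALL it ran from 5.27 through 5.65 to 6.66. The highest leukemia, WT T-ALL 7, lay just below the lowest control, control 4. The difference was -1.29 (SE 0.19, limma adjusted p = 8.69e-06), a 2.39-fold lower mean scaled RPKM.

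Tnfaip3 (gene ID 21929, chr10:19000910-19015410) encodes A20, which takes apart the ubiquitin chains on which the kinase complex assembles. Its thymus levels were tight, at 4.98, 5.03, 5.25, 4.92, 4.95 and 4.93, and all 14 WT T-ALL levels lay below them, from 3.19 through 3.79 to 4.49. The difference was -1.23 (SE 0.14, limma adjusted p = 1.96e-07), a 2.41-fold lower mean scaled RPKM. Nfkbia and Tnfaip3 were the 2 of 9 members whose groups did not overlap, both lower in leukemia, against 6.64% of all genes tested that were lower without overlap and 8.42% that were higher. The two-sided exact permutation test gave 2.58e-05 for each, unadjusted, which is the smallest p that the 38760 splits can give.

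Nfkbie (gene ID 18037, chr17:45555700-45563169), which encodes IkappaBepsilon, was called lower by -0.58 (SE 0.19, limma adjusted p = 0.0145). Its thymus levels were 4.03, 4.32, 4.00, 4.32, 3.95 and 4.18, and WT T-ALL ran from 2.82 through 3.62 to 4.03, with 10 of 14 below every control. Without controls 2 and 4, the highest of the group, the difference was -0.49 and the adjusted p 0.0949. Nfkbib (gene ID 18036, chr7:28758251-28766644), which encodes IkappaBbeta, stood at 4.23, 4.24, 4.17, 3.86, 3.84 and 3.83 in thymus and from 3.457 through 4.05 to 4.24 in WT T-ALL. Its difference was -0.07 (95% interval -0.33 to 0.19, limma adjusted p = 0.658). IkappaBbeta mRNA showed no detectable difference while IkappaBalpha mRNA was well under its level in thymus.

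The next comparison puts Notch3 KO T-ALL beside the same 6 thymus libraries, so that it shares its controls with the one above and is no independent repeat of it. Rel, Rela, Nfkbia and Tnfaip3 were called lower, 4 of 9 members, where 37.5% of the genes tested were called in either direction, 16.3% lower and 21.2% higher. The same 4 members did not overlap between the groups, against 18.4% of all genes tested that were lower without overlap and 23.9% that were higher. Nfkbia was at 5.37, 5.49 and 5.24 in Notch3 KO T-ALL 1 to 3, a difference of -1.71 (SE 0.28, limma adjusted p = 6.12e-05). All 3 lay more than 1 unit below the lowest control. Tnfaip3 was at 3.66, 3.92 and 3.53, a difference of -1.31 (SE 0.20, limma adjusted p = 3.00e-05). Rel was at 1.51, 1.17 and 0.87, a difference of -1.45 (SE 0.30, limma adjusted p = 7.21e-04).

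Rela, at 4.39, 4.18 and 4.43, differed by -0.40 (SE 0.15, limma adjusted p = 0.0444), close to the threshold. That call did not survive leaving out control 2, 4 or 6 or any one of the knockout leukemias, when the adjusted p ran from 0.0579 to 0.161 and the difference from -0.32 to -0.44. Nfkbie, at 2.90, 4.07 and 3.68, differed by -0.58 with an adjusted p of 0.102. Without Notch3 KO T-ALL 2 its adjusted p was 0.0366. Relb, at 2.52, 0.87 and 1.76, differed by -0.68 (adjusted p = 0.151), and Nfkb2, at 3.95, 4.71 and 3.23, by 0.54 (adjusted p = 0.237). The knockout leukemias of both genes fell among the controls and outside them. Nfkb1, at 5.07, 4.94 and 5.24, differed by 0.20 (adjusted p = 0.465) and Nfkbib, at 4.43, 3.50 and 3.90, by -0.09 (adjusted p = 0.736), all from limma. Relb passed the threshold without Notch3 KO T-ALL 1 (difference -1.09, adjusted p = 0.0488). With 84 splits the exact permutation test cannot give a p under 0.0119, and Rel, Nfkbia and Tnfaip3 reached that value.

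**Figure D2:**
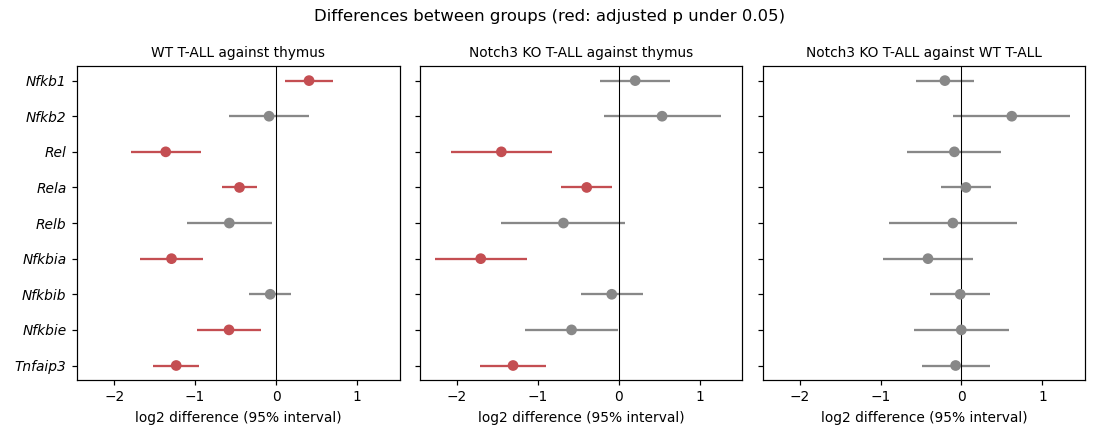
Difference in mean log2(scaled RPKM + 1) for each gene in the 3 comparisons, with 95% intervals from limma; red marks an adjusted p under 0.05. Rel, Rela, Nfkbia and Tnfaip3 are red and to the left of 0 in both comparisons with thymus, which share the 6 controls, and no gene is red in the comparison of the leukemias (right).

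Setting Notch3 KO T-ALL against WT T-ALL asks whether the pathway differs with the donor's Notch3 genotype, with tissue and host held alike. Not everything else was alike. The methods name no strain background for the Notch3 knockout line, and erythroid marker sums were 344 to 1822 in the knockout and 35.0 to 658 in the WT leukemias. Their part was not tested. None of the 9 members was called by limma, 0 had an unadjusted limma p under 0.05 and 0 an exact permutation p under 0.05, where 0.617% of the 11677 genes tested were called, 0.591% higher and 0.0257% lower. No member separated the groups without overlap, against 0.111% of all genes tested that were lower and 0.325% that were higher. The intervals show what could have been missed with 3 knockout leukemias. The difference was 0.62 for Nfkb2 (95% interval -0.10 to 1.35), -0.41 for Nfkbia (-0.97 to 0.14), -0.21 for Nfkb1 (-0.57 to 0.16) and -0.11 for Relb (-0.90 to 0.68). Closer to 0 were Rel at -0.09 (-0.67 to 0.49), Tnfaip3 at -0.07 (-0.49 to 0.35) and Rela at 0.06 (-0.25 to 0.36). Nfkbib, at -0.02 (-0.39 to 0.36), and Nfkbie, at 0.00 (-0.59 to 0.58), had almost the same mean in both groups. Notch3 mRNA itself ran from 2.59 to 3.74 in the knockout leukemias, 3.17 to 5.78 among WT leukemias and 2.62 to 4.29 among controls, so that reads were still assigned to the gene in libraries labelled knockout.

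Expressed as shares of the summed scaled RPKM of the 5 subunits, the make-up of the subunit mRNA differed between thymus and WT T-ALL while the ranges of its sum overlapped. The sum was 74.9 ± 14.1 (SD, n = 6) in thymus, 71.7 ± 12.2 (SD, n = 14) in WT T-ALL and 72.3 ± 2.75 (SD, n = 3) in Notch3 KO T-ALL. Nfkb1 made up 38.8% ± 4.38 of it in thymus and 54.2% ± 5.23 in WT T-ALL, where its lowest share, 43.8%, was above the highest share of any control, 42.7%. The mean share of Rela was 34.8% ± 3.82 in thymus and 26.3% ± 3.88 in WT T-ALL, and that of Rel 7.20% ± 1.83 and 2.11% ± 0.98. Every WT T-ALL share of Rel, up to 4.38%, was under the lowest thymus share of 5.11%. For Nfkb2 the mean shares were 13.4% ± 1.97 and 13.6% ± 5.67. The summed level of the groups thus overlapped while the shares of Nfkb1 and Rel in thymus and WT T-ALL did not. Shares are tied to each other by their sum, and they are given with no test.

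**Figure D3:**
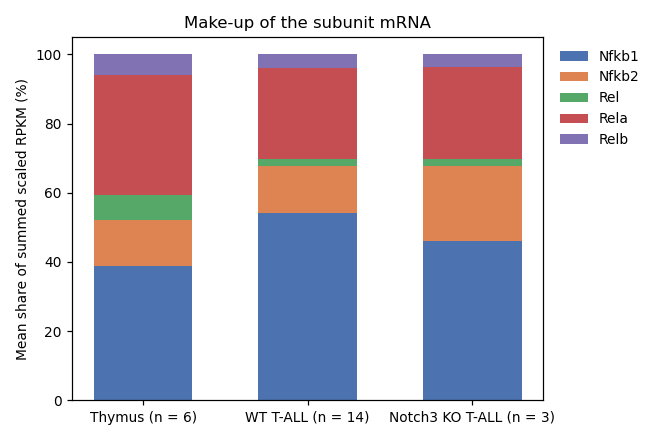
Mean share of each subunit gene in the summed scaled RPKM of the 5 subunits, in %, stacked for thymus, WT T-ALL and Notch3 KO T-ALL. The Nfkb1 block grows from 38.8% to 54.2% between thymus and WT T-ALL and is 45.9% in Notch3 KO T-ALL, where Nfkb2 takes 21.9%.

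The ratio of Nfkbia to Rela, in scaled RPKM, was 5.43 ± 1.54 (SD, n = 6) in thymus and 3.13 ± 1.21 (SD, n = 14) in WT T-ALL, with ranges of 3.63 to 7.13 and 1.80 to 5.28 that overlap. The ratio in Notch3 KO T-ALL was 2.13 ± 0.40 (SD, n = 3), and its highest value, 2.57, was below the lowest control. Both genes of this ratio were lower in leukemia, and the inhibitor by more.

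Within leukemia, Nfkb2 and Relb gave the pattern that stood out. Nfkb2 was highest in WT T-ALL 4, at 4.81, and in Notch3 KO T-ALL 2, at 4.71. In the same 2 libraries Relb was at the lowest of its group, at 0.72 and 0.87. Over the 14 WT T-ALL libraries Pearson r was 0.10 and Spearman rho 0.57, and without WT T-ALL 4 and 120, the 2 farthest from the median of Nfkb2, r was 0.90. Without WT T-ALL 4 alone, a choice made after its values were seen, r was 0.93 and rho 0.96 over 13 libraries. The ratio of Relb to Nfkb2 in scaled RPKM was 0.44 ± 0.07 (SD, n = 6) in thymus, with the lowest control at 0.36, and it was 0.02 in WT T-ALL 4 and 0.03 in Notch3 KO T-ALL 2. Nfkb2 took 31.6% and 33.9% of the subunit mRNA in these leukemias. These values describe single animals.

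**Figure D4:**
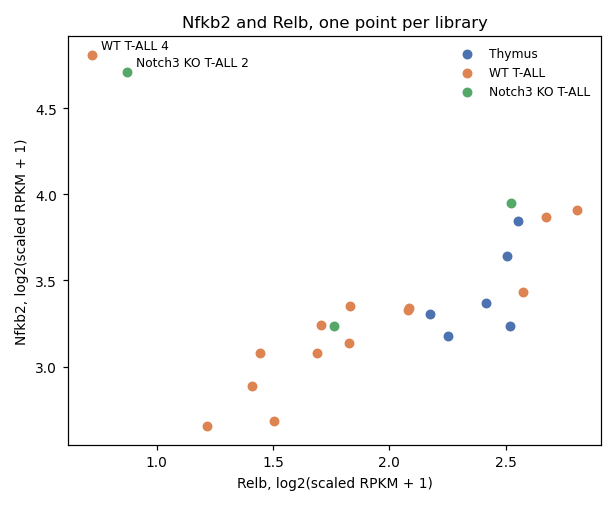
Level of Nfkb2 against that of Relb, both as log2(scaled RPKM + 1), with 1 point per library (23 in all) coloured by group. WT T-ALL 4 (Relb 0.72, Nfkb2 4.81) and Notch3 KO T-ALL 2 (Relb 0.87, Nfkb2 4.71) lie at the upper left, away from the rising band of the other libraries.

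Among the 36 pairs of members over the WT T-ALL libraries, Rela and Tnfaip3 had the highest r without any library left out, 0.70 (rho 0.54), and 0.68 without the 2 libraries farthest from the median of Rela. Nfkbia and Tnfaip3, lower together against thymus, had an r of -0.06 within WT T-ALL (rho -0.10). Beyond the members, the likeness of every gene whose mean scaled RPKM reached 5 in WT T-ALL was ranked by Pearson r over the 14 libraries (8042 or 8043 genes compared for each member). Nfkbia was most like Irf1 (r 0.87, rho 0.69), an interferon-regulated transcription factor and textbook NF-kappaB target, and Pbxip1 (r 0.86). Relb was most like Lfng (r 0.83, rho 0.85), a glycosyltransferase that modifies Notch receptors, and Sema4a (r 0.79). In WT T-ALL 4, the library with the lowest Relb, Lfng was also at its lowest, at 1.27. Rela was most like Pip5k1c (r 0.91) and Ski (r 0.89), the closest matches of any member. For Rel these genes were Ptpn12 and Rap1b (r 0.84 each), for Tnfaip3 Gltp (r 0.82) and Zfp687 (r 0.81), for Nfkb1 Was (r 0.80) and Nceh1 (r 0.75), and for Nfkb2 Efcab14 and Rab21 (r 0.80 each). Nfkbie was most like Cpeb1 (r 0.80) and Peli1 (r 0.79), and Nfkbib most like Slc31a1 (r 0.79) and Eif3f (r 0.78). The highest of so many correlations over 14 points are large in any data, and these are given as descriptions. Without the 2 libraries farthest from each member's median they ran from 0.53 (Nceh1) to 0.82 (Sema4a).

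The rest of the pathway was read from lists of 61 genes, of which 58 passed the filter on low values. In WT T-ALL against thymus 28 were called lower and 12 higher, 69.0% of those tested against 51.6% of all genes, with a median difference of -0.36. In Notch3 KO T-ALL against the same controls 22 were lower and 6 higher (48.3% against 37.5%, median -0.44). Between the leukemias 0 of 57 were called. The lists were drawn up for this pathway with earlier results of these data known. Not every call of the genes named below held under other processing. Over all alternative fits of the pathway genes picked for naming, the call was kept in 1434 and lost with the same sign in 183. In 11 the sign changed.

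The branch from the antigen receptor links the T-cell receptor to the IkappaB kinase complex. Of its genes, Prkcq, which encodes protein kinase C theta, and the adaptor gene Bcl10 were called lower in both leukemia groups. The level of Prkcq was 5.99 ± 0.16 (SD, n = 6) in thymus, 5.10 ± 0.34 (SD, n = 14) in WT T-ALL and 4.94 ± 0.45 (SD, n = 3) in Notch3 KO T-ALL, with a limma adjusted p of 6.44e-05 for WT T-ALL. Prkcq differed by -0.90 and Bcl10 by -0.60 in WT T-ALL, and by -1.05 and -0.70 in Notch3 KO T-ALL. Beside them, the 8 T lineage markers, all of them detected in each group, had a summed scaled RPKM of 2943 to 3720 among controls, 1545 to 3456 in WT T-ALL and, in Notch3 KO T-ALL, 2078 to 2624.

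Of the other IkappaB proteins, Nfkbiz (-1.12, adjusted p = 5.85e-04, limma) and Nfkbid (-1.01, adjusted p = 0.00992, limma) were called lower in WT T-ALL, and Nfkbiz in Notch3 KO T-ALL as well (-1.28). Both are nuclear IkappaB proteins that modulate transcription by p50. In the kinase list 5 of 8 genes were lower and 1 higher in WT T-ALL, against 22.3% and 29.3% of all genes tested. The lower ones were led by Map3k14, the kinase NIK of the p100 branch (-0.90, adjusted p = 6.31e-05, limma), Tab2 (-0.52) and Chuk, the kinase IKKalpha (-0.42). Tab1 was higher (0.55). Map3k14 (-0.79), Chuk (-0.75) and Ikbkb, the kinase IKKbeta (-0.63), were lower in Notch3 KO T-ALL and none was higher, so that 37.5% of the list was called, the same share as over all genes tested (37.5%).

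Among 15 adaptors and ubiquitin enzymes, 7 were lower and 4 higher in WT T-ALL, against 22.3% and 29.3% of all genes tested, and 5 were lower and 2 higher in Notch3 KO T-ALL, against 16.3% and 21.2%. Traf1, an adaptor of TNF receptors that is itself induced by NF-kappaB, had the largest difference, with a level of 3.14 ± 0.38 in thymus against 1.15 ± 0.65 in WT T-ALL (-1.99, adjusted p = 2.05e-06, limma) and 1.20 ± 0.08 in Notch3 KO T-ALL. Birc3 (-1.09) and Birc2 (-0.84), the ubiquitin ligases cIAP2 and cIAP1, were lower in WT T-ALL and also in Notch3 KO T-ALL (-1.52 and -0.9997). Higher were Traf5 (0.59 in WT T-ALL and 1.08 in Notch3 KO T-ALL) and Ripk1 (0.44 and 0.63), and in WT T-ALL also Tnip2 (0.42).

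Receptors and ligands were called in both directions. Lower in WT T-ALL were the T-cell costimulatory receptors Tnfrsf9 (-1.58) and Tnfrsf4 (-1.41) and the TNF receptor Tnfrsf1a (-1.32), and higher were Ltbr (1.34) and Tlr2 (0.65). The direction of Tlr2, a receptor of myeloid cells, did not hold with the macrophage and neutrophil markers as a covariate (-0.16). With a block on the label number, where of the WT leukemias only 3, 4 and 5 count, its difference was -0.0018. Macrophage marker sums ran from 16.1 to 277 in WT T-ALL and 8.56 to 52.4 among controls, and neutrophil sums from 636 to 84321 and 57.1 to 530. The part of these cells in the Tlr2 level was not tested. Ltbr, the lymphotoxin beta receptor, is a receptor of stromal and myeloid cells that feeds the p100 branch. Its ligand gene Ltb, expressed by lymphocytes, was at 6.71 ± 0.19 in thymus, 4.67 ± 0.90 in WT T-ALL (-2.04, adjusted p = 4.59e-05, limma) and 4.09 ± 0.63 in Notch3 KO T-ALL. Cd40lg was near 0 in leukemia, at 0.31 ± 0.53 against 2.95 ± 0.29 (-2.64, adjusted p = 2.71e-09, limma), and Lta differed by -0.88. In Notch3 KO T-ALL the called receptors and ligands included Tnfrsf9 (-2.16), Tnfrsf4 (-1.89), the costimulatory receptor Cd27 (-1.36), Cd40lg (-2.76) and Lta (-1.10). Il1b, a cytokine of myeloid cells, was higher in WT T-ALL (1.24, adjusted p = 0.00768, limma), where it was highest in WT T-ALL 110 (4.08, against a median of 1.40), and in Notch3 KO T-ALL it was at the threshold (1.36, adjusted p = 0.0499, limma). With the macrophage and neutrophil covariate its differences were 0.088 and 0.079, and it was not called in either. The part of myeloid cells in the Il1b level was not tested. Tnfsf11 (0.99) was higher in WT T-ALL. Cd40, Tnfrsf11a and Tnfrsf13c did not pass the filter.

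Textbook target genes gave no common direction. In WT T-ALL 3 of 12 were higher and 3 lower against the background of 51.6% called. Lower were Bcl2l1, which encodes the survival protein Bcl-xL (6.10 ± 0.23 in thymus and 4.03 ± 0.61 in WT T-ALL, adjusted p = 2.63e-06, limma), Cflar (-0.91) and Gadd45b (-0.78). Higher were the adhesion molecule Vcam1 (2.63, adjusted p = 4.54e-04, limma), Ier3 (1.38) and the mitochondrial enzyme Sod2 (1.00). In Notch3 KO T-ALL against the shared controls the called genes were Bcl2l1 (-1.26), Cflar (-1.14) and Gadd45b (-1.05), lower, and Vcam1 (4.14), Ier3 (2.09) and Sod2 (0.92), higher.

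**Figure D5:**
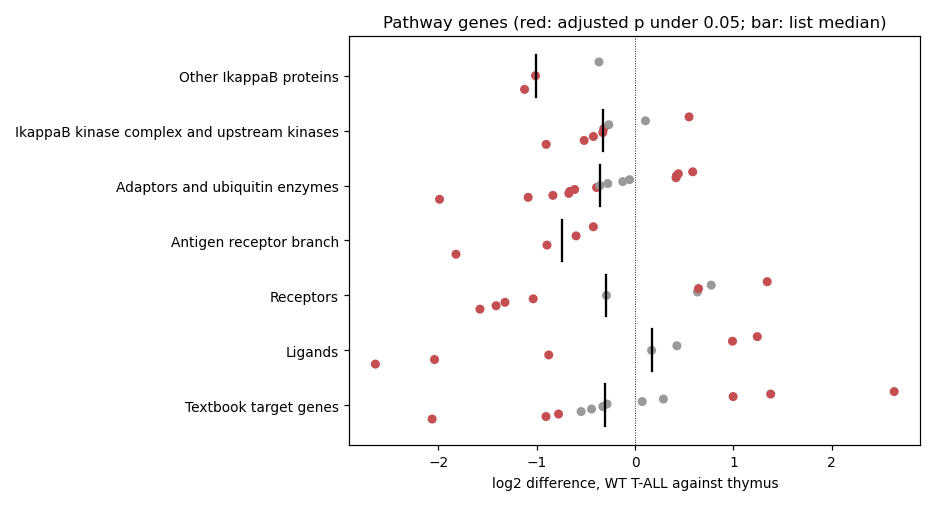
Difference in mean log2(scaled RPKM + 1) between WT T-ALL and thymus for the 58 tested genes of the pathway lists, 1 point per gene in 7 lists; red marks an adjusted p under 0.05 and the black bar the list median. Ligands and target genes spread from -2.64 to 2.63, on both sides of 0.

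Markers of other cell types moved with the groups. The summed scaled RPKM of 6 erythroid markers was 0.25 to 2.43 among controls, 35.0 to 658 in WT T-ALL and, in Notch3 KO T-ALL, 344 to 1822. Macrophage markers (8 genes) ran from 8.56 to 52.4, 16.1 to 277 and 196 to 278, and neutrophil markers (7 genes) from 57.1 to 530, 636 to 84321 and 202 to 7564. Going the other way, B cell markers (5 genes) ran from 17.4 to 23.03 among controls, 0.52 to 5.80 in WT T-ALL and, in Notch3 KO T-ALL, 0.64 to 1.53. Thymic epithelium markers (6 genes) did so too, from 3.82 to 6.41, 0.02 to 3.32 and 0.22 to 3.80. Foxn1, Psmb11, Krt5 and the B cell gene Pax5 were listed at 0 in every knockout leukemia. Among controls their levels reached only 0.06, 0.27, 0.37 and 0.68. The epithelial gene Epcam reached 2.24 in a knockout leukemia, within its control range of 2.16 to 2.43. Dendritic cell markers (5 genes) ran from 1.06 to 2.68 among controls and 0.67 to 12.6 in WT T-ALL, where WT T-ALL 110 was highest. In Notch3 KO T-ALL they ran from 4.11 to 6.41. Of the 5, only Siglech had a lower median level in WT T-ALL (0.20) than in thymus (0.52). Endothelial markers (4 genes) ran from 31.6 to 37.6, 18.3 to 39.6 and 23.2 to 31.8. In that order of groups the median levels of Pecam1 were 5.17, 4.74 and 4.65. Those of Cdh5 were 0.15, 0.59 and 1.25, of Kdr 0.09, 0.35 and 0.89, and of Tek 0, 0.14 and 0.30.

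With the mean log2 level of the T lineage markers as a covariate, 5 of 9 members were called in WT T-ALL against thymus and 3 in Notch3 KO T-ALL against thymus, where 45.6% and 34.6% of all genes tested were called. With that of the macrophage and neutrophil markers the members called were 5 and 4, and over all genes 3544 and 2744 of 11919. With the T lineage covariate Nfkb1 in WT T-ALL (0.43, limma adjusted p = 0.0630) and Rela in Notch3 KO T-ALL (-0.39, limma adjusted p = 0.105) lost their calls. With the macrophage and neutrophil covariate, in WT T-ALL, Nfkb1 (0.18, adjusted p = 0.492) and Nfkbie (-0.38, adjusted p = 0.269) were no longer called by limma, nor was Rela in Notch3 KO T-ALL (difference -0.37 against -0.40 without the covariate, adjusted p = 0.169). Relb was then called lower in both, by -1.07 (adjusted p = 0.0140) and -1.23 (adjusted p = 0.0354). With the erythroid markers, whose lowest leukemia lies above the highest control, 0 of 9 members were called in either comparison with thymus, and the calls over all genes fell to 410 and 38. The difference of Nfkbia was then -0.61 (adjusted p = 0.491), that of Tnfaip3 -0.95 (adjusted p = 0.118) and that of Rel -1.53 (adjusted p = 0.103). In these libraries the erythroid level and the group cannot be told apart.

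The controls were not uniform either. Over all genes tested their deviations from the group mean paired control 1 with 3 (r 0.67), 2 with 4 (r 0.62) and 5 with 6 (r 0.57), and the labels name no batch. Without any of these pairs, Rel, Nfkbia and Tnfaip3 were still called lower in both comparisons with thymus.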

How the data were processed

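RNA sequencing libraries of 23 mouse samples were analysed from 1 table of 24475 genes. By the study's methods, stranded mRNA libraries were sequenced in paired ends, aligned by OSA within ArrayStudio to the transcriptome of mm10. The values deposited by the authors are log2: every column has a 75th percentile of 3.458 to 3.459, that of log2(RPKM + 1) with RPKM scaled to an upper quartile of 10.0. The table gives no counts. The methods name an approximate depth common to all samples, the exact depth of each library is unknown, and no detection limit is given. A total of 27 symbols that had become dates were restored by gene ID.

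Members and gene lists were chosen with earlier results of these data known. Values were used as deposited. Genes that reached a scaled RPKM of 1 in 3 or more libraries were tested with limma 3.58.1 in R 4.3.3 (trend and robust empirical Bayes, Benjamini-Hochberg adjustment). The comparisons with thymus were fitted on all 23 libraries, and Notch3 KO T-ALL against WT T-ALL on the 17 leukemias. The fits were tested on simulated data. Two-sided exact permutation tests over libraries (Python 3.11.15) were an alternative. Pathway genes were named where called, up to 3 per list, direction and comparison by the size of the difference, and for likeness the 2 genes with the highest r per member, leaving out T-cell receptor, immunoglobulin, hemoglobin and predicted genes. Alternatives were the offset, filter, normalization, libraries fitted, marker covariates, each library left out and a block on the label number. Omission of pairs of controls, a correction for GC content and transcript length, and a split by the main pattern within groups were chosen after seeing the data. Libraries come from separate animals, and the exact tests are unadjusted. Promoter sequences are from RefSeq. The values of 1 pathway gene that the rule names are not reported here.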

Additional observations from a re-analysis of the deposited data

Results flagged for a closer look

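Tnfaip3 in thymus had 1 library apart from the others. Control 3 was at 5.25 on the log2(scaled RPKM + 1) scale, and the gap to the next control, 5.03, was 0.66 of the whole range of the 6 controls, above Dixon's 95% critical value for 6 samples. Chance alone marks about 1 group in 20, and 9 thymus groups were looked at. Without control 3 Tnfaip3 was still called lower in both leukemia groups.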

How the results depend on the processing

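The calls of Rel, Nfkbia and Tnfaip3 against thymus kept their direction and side of the threshold in 35 of 36 alternatives for WT T-ALL and 22 of 23 for Notch3 KO T-ALL, and were lost with the erythroid covariate. With it the members called went from 6 and 4 to 0 and 0, and the pathway genes from 40 and 28 to 2 and 0. The macrophage and neutrophil covariate left 24 pathway genes in WT T-ALL, where the share of all genes called was 29.7%, against 51.6% without it. Among libraries above and below 0 on the main pattern within groups (21.6% of the variance), 23 and 24 pathway genes and, below 0, 3 members were called, with fewer libraries and with 29.7% and 33.6% of all genes called. With 1 library left out, the members called numbered 5 to 7 for WT T-ALL, 3 to 4 for Notch3 KO T-ALL (both against thymus) and 0 between the leukemias, and the pathway genes 35 to 42, 23 to 29 and 0. In the fits with no library left out, 51.6%, 37.5% and 0.617% of all genes tested were called in these comparisons. Likeness without the 2 most distant libraries was 0.55 for Rel with Ptpn12 and 0.60 for Nfkbia with Pbxip1.

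Label numbers name animals and do not pair them: deviations of same-numbered libraries correlated at 0.04, -0.03 and 0.15 (Notch3 KO T-ALL with thymus) and -0.24, 0.09 and 0.13 (WT T-ALL with thymus). In the replicate block, a library whose number occurs in no other group drops out of the comparison. Of the WT leukemias only WT T-ALL 3, 4 and 5 then bear on the difference from thymus, so it is no check on all 14. The block left 3 members and 20 pathway genes called in WT T-ALL and 3 members in Notch3 KO T-ALL. The shares of all genes called were 24.5% and 30.6%. The WT T-ALL calls of Nfkb1, Rela and Nfkbie were lost, with Nfkb2 at 0.50 and Tlr2 at -0.0018 there. WT T-ALL 4 had the highest Nfkb2 level (4.81) and the lowest Tlr2 level (0.37) of its group. No batch is named, so no batch term was run.

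Differences that changed sign were as follows, and the cause was not tested. In WT T-ALL against thymus, Nfkb2 was 0.13 with the macrophage and neutrophil covariate, 0.10 with the GC and length correction and 0.071 without controls 2 and 4. Nfkbib was 0.19 with the erythroid and 0.10 with the T lineage covariate, 0.015 without controls 1 and 3 and 0.15 below 0 on the main pattern. With the erythroid covariate Nfkbid was 0.15, Nfkbiz 0.048, Tlr2 -0.10, Vcam1 -0.10 and Ier3 -0.22, and Tlr2 was -0.16 with the macrophage and neutrophil one. In Notch3 KO T-ALL against thymus, Nfkb1 was -0.047 with the erythroid and -0.050 with the macrophage and neutrophil covariate, and -0.044 without controls 5 and 6. Nfkbib was 0.30 with the erythroid and 0.12 with the T lineage covariate, and -0.33 to 0.13 with 1 library left out, above 0 without Notch3 KO T-ALL 2. With the erythroid covariate Rela was 0.082, Nfkbiz 0.46, Ikbkb 0.19, Cd27 0.057 and Ier3 -0.28. Between the leukemias, where no member was called, Nfkbib was 0.12 with the erythroid and 0.020 with the T lineage covariate and -0.26 to 0.21 with 1 library left out. Nfkbie was 0.0022 with quantile normalization, 0.15 with the erythroid and 0.022 with the macrophage and neutrophil covariate, and -0.26 to 0.32 with 1 library left out. Rel was 0.051 and Rela -0.033 with the GC and length correction, and Tnfaip3 0.074 with the erythroid covariate. With 1 library left out, Rel ran from -0.25 to 0.070 and Tnfaip3 from -0.18 to 0.014, above 0 when Notch3 KO T-ALL 3 was omitted, and Relb from -0.51 to 0.32, above 0 when Notch3 KO T-ALL 2 was.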
